A study of Mus musculus with 48 samples.

Results

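Clones of T cells whose T cell receptor beta chain carried hydrophobic residues at both CDR3 positions 6 and 7 were described in tumors and draining lymph nodes (dLNs) of tumor-bearing mice. Reads with the same V, the same J and the same CDR3 bases were taken as 1 clone. A clone was counted as hydrophobic when its CDR3 had 12 to 15 residues, counted from the first cysteine as 1, and residues 6 and 7 were both among Phe, Ile, Leu, Met, Val, Trp, Tyr and Cys. Of 744876 distinct clones in the 48 deposited clone tables, 609515 had 12 to 15 residues and 10622 were hydrophobic, which is 1.74% of the clones of 12 to 15 residues and 1.43% of all clones. A clone was taken by its residues alone, not by its abundance or tissue, although the residue rule itself was chosen with earlier results of these data known.

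The samples came from 8-week-old female C57BL/6 mice, 4 animals numbered 5 to 8, that carried Lewis lung carcinoma (LLC, a mouse lung tumor line) under the skin of the left and the right back until day 13. Each tumor was divided into 2 fragments, which gave 32 tumor libraries, and each side had a dLN, which gave 16 libraries. T cells that were negative for an intravenous CD45.2 stain and for lineage markers, and positive for the TCR beta chain, were sorted as CD8+ or CD4+ from tumors, and as CD44hi CD8+ or CD44hi CD4+ from dLNs. The study's methods give the substrain as C57BL/6J. Tumor-free mice were not analysed here. The CD44 gate was set in dLNs and not in tumors, so tissue and gate cannot be told apart in any comparison below, and regulatory and conventional CD4+ T cells were sorted together. Clone tables of 1 receptor chain hold no other genes, so the sorted cell type could not be checked against markers.

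The CDR3 is assembled in each T cell precursor by joining a V, a D and a J segment with bases removed and added at random at the joints, and its central residues face the peptide held by the MHC molecule. Hydrophobic residues at positions 6 and 7 of the beta chain are known from earlier work to promote reactivity to self peptides, and thymic selection and the regulatory T cell fate depend on that reactivity. The feature is therefore used as a sequence marker of self-reactive potential, although a beta chain alone does not define what a receptor binds.

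The sequences below are the most frequent hydrophobic CD8+ and CD4+ clone of each mouse over both tumors, since these are the most abundant clones with the feature. They are the CDR3 bases from 5′ to 3′, with codons 6 and 7 in capitals.
CD8 mouse 5, TRBV19 and TRBJ2-5, Ile-Leu: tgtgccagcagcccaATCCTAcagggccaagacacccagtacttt
CD8 mouse 6, TRBV12-2 and TRBJ2-5, Leu-Val: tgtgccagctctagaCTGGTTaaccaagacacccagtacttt
CD8 mouse 7, TRBV24 and TRBJ1-4, Leu-Ile: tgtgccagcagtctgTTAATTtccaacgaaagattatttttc
CD8 mouse 8, TRBV12-2 and TRBJ2-5, Val-Val: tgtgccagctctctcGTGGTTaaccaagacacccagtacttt
CD4 mouse 5, TRBV1 and TRBJ2-3, Val-Val: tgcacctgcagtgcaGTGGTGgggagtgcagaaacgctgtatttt
CD4 mouse 6, TRBV13-2 and TRBJ2-7, Val-Trp: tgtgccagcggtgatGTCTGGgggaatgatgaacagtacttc
CD4 mouse 7, TRBV13-3 and TRBJ2-4, Ile-Trp: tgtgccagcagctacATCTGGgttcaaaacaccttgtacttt
CD4 mouse 8, TRBV12-1 and TRBJ2-4, Tyr-Trp: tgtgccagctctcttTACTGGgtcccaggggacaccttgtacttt

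All of these segments lie in the Trb locus, which GENCODE M21 places on chromosome 6 of GRCm38. Trbv12-1 spans positions 41113550 to 41114067, Trbv12-2 spans 41118851 to 41119364, Trbd2 spans 41542163 to 41542176, Trbj2-1 spans 41542754 to 41542803 and Trbj2-5 spans 41543453 to 41543501, all on the plus strand. The build that the study's own segment reference used is not given in the sources used here, and the coordinates serve only to place the segments.

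The deposited tables held 326582 to 4840722 reads per library. After reads were drawn to 6 per sorted cell, a tumor (2 fragments summed) or dLN held 6722 to 79310 clones, of which 59 to 1444 were hydrophobic. All shares below are percentages of the clones, or of the reads, with 12 to 15 residues, averaged over the left and the right side of a mouse, so that the mouse is the replicate (n = 4). Most groups were compared with a two-sided exact permutation test over all 70 splits of 8 mouse values, whose smallest p is 0.0286. With 17 results tested, no p adjusted by the method of Benjamini and Hochberg went below 0.054, and the p values below are unadjusted.

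Among CD8+ T cells, hydrophobic clones made up a larger part of the distinct clones in the tumor than of those in the dLN. In tumors the clone share was 2.21%, 2.33%, 2.25% and 2.31% in mice 5, 6, 7 and 8, and in dLNs it was 1.34%, 1.32%, 1.32% and 1.42%. Every tumor value lay above every dLN value. The means were 2.27% ± 0.0503 in tumors and 1.35% ± 0.0503 in dLNs (SD, n = 4), a difference of 0.925 percentage points (SD of the mouse differences 0.0624, exact permutation p = 0.0286, adjusted p = 0.054). Without Tyr and Cys in the residue set it was 0.606 points (exact permutation p = 0.0286). The ratio of tumor to dLN was between 1.62 and 1.77 in the 4 mice. Each single tumor or dLN gave this share with a Wilson 95% interval of at most ± 0.229 percentage points, which covers counting error only.

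CD4+ T cells carried fewer hydrophobic clones, and the tumor was again the higher side. The CD4+ clone share was 1.08%, 1.28%, 1.19% and 1.23% in the tumors and 0.821%, 0.825%, 0.794% and 0.839% in the dLNs of mice 5, 6, 7 and 8. These groups did not overlap either. The means were 1.19% ± 0.0849 and 0.82% ± 0.0184, which differ by 0.374 percentage points (SD 0.0835, n = 4, exact permutation p = 0.0286). Without Tyr and Cys the difference was 0.187 points (exact permutation p = 0.0286). The CD4+ minus CD8+ difference was -1.08 percentage points in tumors and -0.530 points in dLNs, with CD8+ higher in 4 of 4 mice each (exact permutation p = 0.0286 for both). The difference between tumor and dLN was itself smaller in CD4+ than in CD8+ T cells in 4 of 4 mice, at -0.551 points (SD 0.0516, exact permutation p = 0.0286). When the shares were weighted to a common V usage it was -0.298 points (exact permutation p = 0.0286).

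By reads the same clones gave another picture, because a clone then counts by its abundance. In the CD8+ dLNs the read share was nearly the same in the 4 mice, from 1.23% to 1.26%, and close to the share by clones. In CD8+ tumors it was 0.414%, 0.380% and 0.883% in mice 5, 6 and 7 and 5.03% in mouse 8. Mice 5, 6 and 7 thus lay below all dLN values and mouse 8 lay above all of them. The difference was smaller than the spread between tumors (1.68% ± 2.25 against 1.25% ± 0.0140, n = 4, exact permutation p = 1). In mouse 8 a single clone held 92.0% of the hydrophobic reads (mean of both tumors). When the most frequent hydrophobic clone of every tumor and dLN was left out, an alternative chosen after the data were seen, the CD8+ tumor read share became 0.498% against 1.23% in dLNs. This removes hydrophobic reads only and keeps the large clones of the other kind, which lowers the share by construction, so the difference of -0.731 points is given without a test. With all clones kept, the read share was 0.187, 0.163, 0.392 and 2.18 times the clone share in the CD8+ tumors of mice 5, 6, 7 and 8, against 0.880 to 0.948 times in dLNs.

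For CD4+ T cells the read share was 1.43%, 0.729%, 0.666% and 1.05% in tumors and 1.01%, 0.759%, 0.835% and 1.07% in dLNs. The values overlapped and the difference of 0.0495 points was smaller than the spread between mice (SD 0.257, exact permutation p = 0.886). Between subsets, the CD4+ minus CD8+ difference in read share was -0.331 points in the dLN (exact permutation p = 0.0286, CD4+ lower in 4 of 4 mice). Without the most frequent hydrophobic clone it was -0.511 points. That removal lowers the CD4+ share more by construction, since this clone held on average 0.173% of CD4+ and 0.0168% of CD8+ dLN reads. Without Tyr and Cys the difference was -0.215 points and did not pass the test (exact permutation p = 0.0571). In tumors the subsets were not separated by reads (exact permutation p = 0.943).

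**Figure D1:**
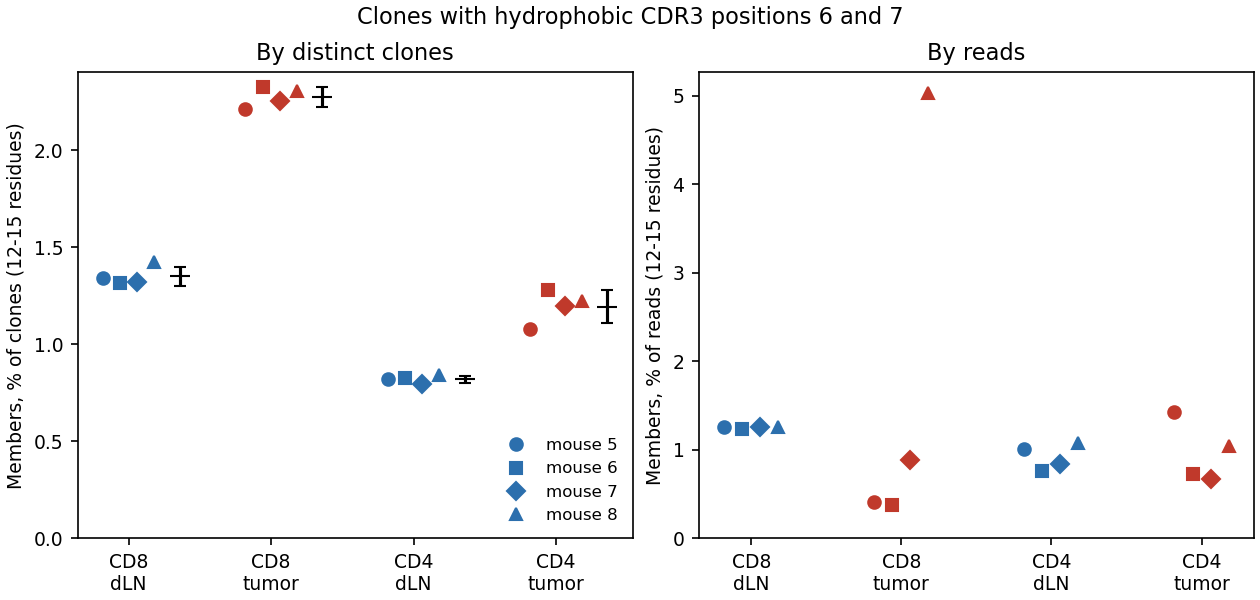
Hydrophobic clones as a percentage of distinct clones (left) and of reads (right) with a CDR3 of 12 to 15 residues, 1 point per mouse (mean of both sides), with mean and SD beside the clone shares. Tumor points (red) lie above dLN points (blue) by clones in both subsets, while by reads 3 CD8+ tumor points lie below the dLN points and mouse 8 stands at 5.03%.

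By distinct clones, the feature was most common at the longest CDR3 length. By reads, 15 residues had the lowest CD8+ tumor share in mice 5, 6 and 8 (0.294%, 0.280% and 0.291%) and the highest in mouse 7 (1.79%). In CD8+ tumors the clone share was 1.95% ± 0.115 at 12 residues, 1.85% ± 0.139 at 13, 2.34% ± 0.111 at 14 and 2.63% ± 0.131 at 15 (SD, n = 4). In CD8+ dLNs it was 1.07% ± 0.193, 1.05% ± 0.123, 1.35% ± 0.0302 and 1.73% ± 0.106 at the same lengths. At each of the 4 lengths every CD8+ tumor value lay above every dLN value. In CD4+ tumors the share was 0.802% ± 0.149, 0.761% ± 0.131, 1.18% ± 0.219 and 1.84% ± 0.0941 at 12, 13, 14 and 15 residues, and in CD4+ dLNs 0.621% ± 0.112, 0.638% ± 0.0850, 0.828% ± 0.102 and 1.12% ± 0.133. Only at 15 residues were the CD4+ tumor and dLN values apart, and the neighbours at 12 and 13 residues differed by less than their SD in each group.

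J segments split the clones further. The TRBJ2 cluster, which lies next to the Trbd2 segment, held 87.8% ± 0.921 of the hydrophobic CD8+ tumor clones and 68.2% ± 0.475 of the other clones of 12 to 15 residues. Within TRBJ2 the hydrophobic share was 2.91% ± 0.0619 in CD8+ tumors and 1.76% ± 0.0823 in CD8+ dLNs, and within TRBJ1 it was 0.882% ± 0.0539 and 0.499% ± 0.0351. In CD4+ T cells it was 1.58% ± 0.0804 and 1.05% ± 0.0552 within TRBJ2, and 0.513% ± 0.101 and 0.383% ± 0.0908 within TRBJ1, for tumors and dLNs (SD, n = 4). The 3 J segments with the highest share among the 12 ranked were the same in both subsets. TRBJ2-5 had 3.76% ± 0.179, TRBJ2-1 had 3.34% ± 0.114 and TRBJ2-7 had 2.86% ± 0.198 in CD8+ tumors. In CD4+ tumors TRBJ2-1 came first at 3.19% ± 0.250, ahead of TRBJ2-5 at 1.81% ± 0.355 and TRBJ2-7 at 1.31% ± 0.20. The lowest were TRBJ1-2, TRBJ1-5 and TRBJ1-1 in both subsets, at 0.442% to 0.698% in CD8+ and 0.273% to 0.340% in CD4+ tumors. By distinct clones, the mean CD8+ share was higher in tumors than in dLNs for 12 of 12 J segments, and in every mouse for 11. The mean CD4+ share was higher for 9 of 12, with TRBJ1-1, TRBJ1-5 and TRBJ2-3 on the other side, and in every mouse for 7. By reads, TRBJ1 had 0.149% ± 0.101 in CD8+ tumors and 0.433% ± 0.0245 in CD8+ dLNs. The TRBJ2 read share was 0.575%, 0.675%, 1.32% and 11.4% in the CD8+ tumors of mice 5, 6, 7 and 8, against 1.57% to 1.64% in dLNs.

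**Figure D2:**
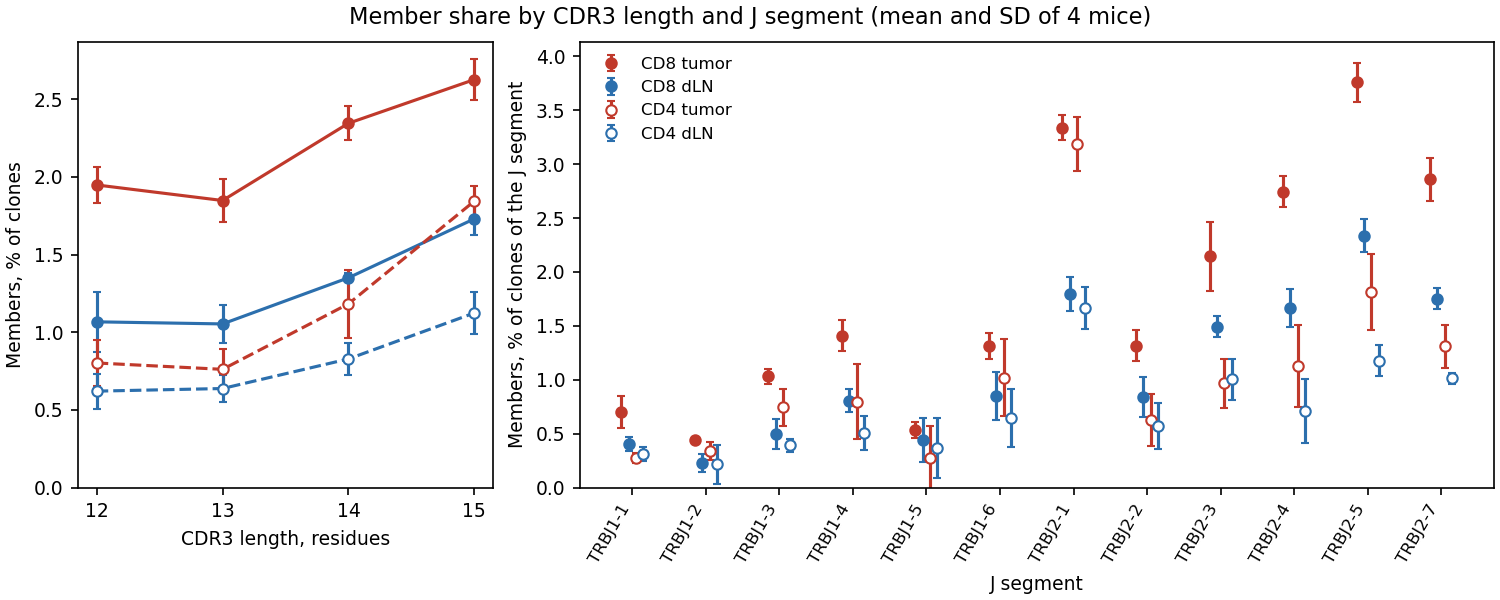
Hydrophobic share of clones by CDR3 length (left) and by J segment (right), as mean and SD of 4 mice, for CD8+ (filled) and CD4+ (open) T cells of tumors (red) and dLNs (blue). The share is highest at 15 residues in all 4 groups, and within each group the TRBJ1 segments lie below TRBJ2-1, TRBJ2-5 and TRBJ2-7.

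The D segments differ in what they can encode. Germline Trbd1 and Trbd2 are shown here because reading frame 3 of Trbd2 holds a tryptophan codon that Trbd1 lacks.
Trbd1: gggacagggggc
Trbd2: gggactgggggggc
The study's assignment gave Trbd2 to 60.5% ± 0.857 of the hydrophobic CD8+ tumor clones and to 35.3% ± 0.372 of the others, and Trbd1 to 5.01% ± 1.02 and 44.0% ± 0.330. No D segment could be assigned in 34.5% ± 1.27 and 20.6% ± 0.254. The other groups had the same order, with Trbd2 in 55.9% to 59.1% and Trbd1 in 5.06% to 7.87% of hydrophobic clones. Of the 6 bases in codons 6 and 7 of hydrophobic CD8+ tumor clones, 2.66 ± 0.0270 on average lay in no segment, against 1.38 ± 0.0186 in the others, and 2.48 ± 0.0324 lay in D, against 3.86 ± 0.0120. Of the other frames, frame 2 of Trbd2 reads Gly-Leu-Gly-Gly and holds a Leu of the residue set, and no frame of Trbd1 holds a residue of the set.

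Tryptophan was the residue found in the largest share of hydrophobic tumor clones, and valine had the higher mean in dLNs. Trp stood at position 6 or 7 in 60.5% ± 1.16 of the hydrophobic clones of CD8+ tumors, 49.2% ± 2.09 of CD8+ dLNs, 52.8% ± 4.4 of CD4+ tumors and 45.1% ± 4.21 of CD4+ dLNs (SD, n = 4). Val stood at position 6 or 7 in 46.0% ± 1.01, 50.8% ± 0.905, 40.9% ± 3.42 and 46.6% ± 2.41 of the same groups, so that in dLNs the mice overlapped between Trp and Val. Clones with Trp made up 1.38% ± 0.0470 of CD8+ tumor clones and 0.664% ± 0.0452 of CD8+ dLN clones. Hydrophobic clones without Trp made up 0.898% ± 0.0262 and 0.685% ± 0.0262. Neither pair overlapped between tissues. The 5 most frequent pairs in CD8+ tumors were Tyr-Trp at 16.3% ± 0.846 of the hydrophobic clones, Val-Trp at 14.6% ± 0.431, Trp-Val at 11.4% ± 0.584, Val-Leu at 6.71% ± 0.439 and Leu-Trp at 5.79% ± 0.617. In CD4+ tumors they were Tyr-Trp at 19.5% ± 2.46, Val-Trp at 10.5% ± 4.68, Val-Leu at 7.41% ± 2.37, Trp-Val at 7.23% ± 2.52 and Leu-Leu at 6.24% ± 0.747. In dLNs Val-Trp came first, at 14.2% ± 1.33 in CD8+ and 12.2% ± 1.84 in CD4+ T cells, with Tyr-Trp second at 13.3% ± 1.11 and 11.2% ± 3.03. Within each dLN group these first and second pairs differed by less than their SD.

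The same residue set was then counted at neighbouring positions, to see where positions 6 and 7 stand. In CD8+ T cells the ratio of tumor to dLN was 1.69 ± 0.0649 for positions 6 and 7 together, 1.38 ± 0.0370 for positions 5 and 6, 1.24 ± 0.0748 for positions 7 and 8, and 1.34 ± 0.0490 for positions 8 and 9. For positions 4 and 5, which held the residues in only 0.129% of tumor clones, it was 1.39 ± 0.148. Clones with a hydrophobic residue at position 6 only had a ratio of 1.24 ± 0.0230, those at position 7 only 1.12 ± 0.0200, and those with neither 0.915 ± 0.00785 (SD, n = 4). The lowest CD8+ mouse value for 6 and 7 together, 1.62, lay above the highest mouse value of each of these. In CD4+ T cells the ratio was 1.46 ± 0.103 for positions 6 and 7, 1.06 ± 0.196 for 4 and 5, 1.10 ± 0.0415 for 5 and 6, 1.12 ± 0.0901 for 7 and 8, 1.22 ± 0.252 for 8 and 9, 1.14 ± 0.0231 for position 6 only and 0.987 ± 0.00751 for position 7 only. In CD4+ T cells the mice overlapped, since positions 8 and 9 reached 1.46 and 1.42 in mice 5 and 6, above the 1.31 of positions 6 and 7 in mouse 5. The differences between windows were not tested.

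The V segments of CD8+ T cells were alike in direction. Among the 20 V segments with at least 200 clones of 12 to 15 residues in every mouse and both tissues, the hydrophobic share of distinct clones was higher in the tumor for 20 of 20 by the mean and in every mouse. Shares of reads by V segment are not given here. It was highest for TRBV16 at 2.91% ± 0.111, TRBV14 at 2.87% ± 0.169 and TRBV12-1 at 2.86% ± 0.334, and lowest for TRBV20 at 1.04% ± 0.178, TRBV29 at 1.19% ± 0.239 and TRBV15 at 1.38% ± 0.167. In the dLN these 6 segments had 2.10%, 1.65%, 1.37%, 0.737%, 0.644% and 1.04%.

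In CD4+ T cells, among the 19 V segments with at least 200 clones of 12 to 15 residues in every mouse and both tissues, TRBV12-1 stood far from the others. TRBV12-1 clones were hydrophobic in 5.95%, 8.25%, 8.76% and 9.90% of cases in the tumors of mice 5, 6, 7 and 8, and in 1.16%, 1.26%, 0.967% and 1.09% in their dLNs. The next of these segments were TRBV13-3 at 1.72% ± 0.433 and TRBV13-2 at 1.58% ± 0.194, and the lowest were TRBV15 at 0.239% ± 0.207, TRBV2 at 0.516% ± 0.535 and TRBV29 at 0.670% ± 0.205. TRBV24, which GENCODE lists as a pseudogene, had as few as 56 clones in a mouse and was not ranked. Its share was 6.25%, 4.76%, 2.49% and 5.39% in tumors (14 hydrophobic clones over all mice) and 4.20% ± 3.29 in dLNs. Among the 19 ranked segments, the mean was higher in the tumor for 16, and lower for TRBV15, TRBV16 and TRBV29. It was higher in every mouse for only 4 of the 19, and for 1 of them, TRBV12-1, the tumor and dLN values did not overlap. TRBV12-1 was a rare segment in CD4+ T cells, with 1.80% ± 0.108 of the tumor clones of 12 to 15 residues.

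**Figure D3:**
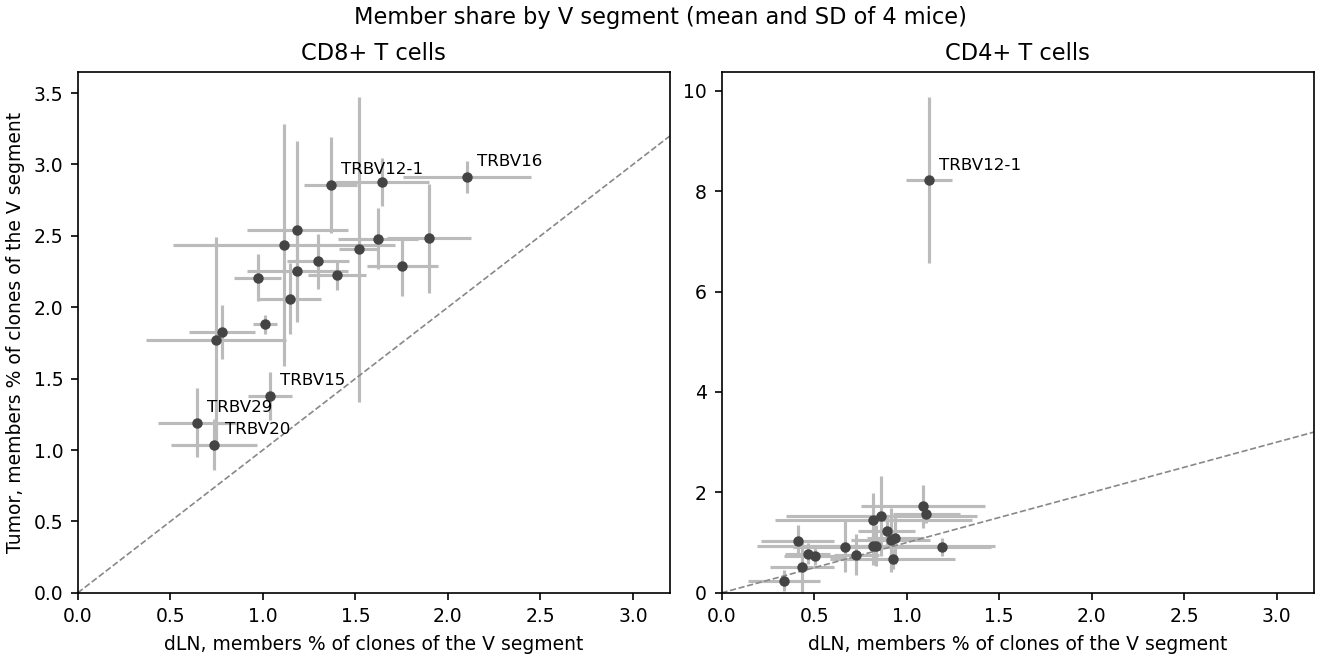
Hydrophobic share of the clones of each V segment in tumors (vertical) and dLNs (horizontal), as mean and SD of 4 mice, with equal shares on the dashed line. All 20 CD8+ segments lie above the line, and in CD4+ T cells TRBV12-1 lies at 8.21% in tumors against 1.12% in dLNs.

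Of the hydrophobic TRBV12-1 clones of CD4+ tumors, 85 were of 1 kind and 31 of others, and this kind was picked out after these values had been seen and is therefore described without a test. These clones joined TRBV12-1 to TRBJ2-1 with 15 residues and had Tyr-Trp at positions 6 and 7. The 3 that were found in most mice, and at the highest summed frequency among equals, are shown with codons 6 and 7 in capitals.
Pro at position 5, found in CD4+ tumors of 4 mice: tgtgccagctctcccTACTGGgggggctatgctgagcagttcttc
Leu at position 5, found in CD4+ tumors of 3 mice: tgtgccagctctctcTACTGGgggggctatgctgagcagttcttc
Leu at position 5, found in CD4+ tumors of 2 mice: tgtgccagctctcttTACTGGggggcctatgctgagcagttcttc
In CD4+ tumors, 12 of 19, 25 of 47, 28 of 49 and 20 of 38 TRBV12-1 and TRBJ2-1 clones of 15 residues had Tyr-Trp in mice 5, 6, 7 and 8, which is 63.2%, 53.2%, 57.1% and 52.6%. In CD4+ dLNs the counts were 1 of 18, 0 of 20, 1 of 21 and 0 of 21. In CD8+ tumors the share was 5.85% to 7.29% and in CD8+ dLNs 0.417% to 1.50%. The lowest CD4+ tumor value was thus more than the highest value of any other group, and CD8+ tumors lay above CD8+ dLNs in every mouse.

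The Tyr-Trp clones of this kind numbered 85 over the 4 mice in CD4+ tumors, and made up 8.81% to 11.4% of all hydrophobic CD4+ tumor clones. They were many different clones. The 72 distinct nucleotide sequences encoded 42 amino acid sequences, of which 11 were found in 2 or more mice and 4 in all 4 mice. All 150 sequences found in any group were assigned Trbd2. Position 8 was Gly in 68 of the 72, while position 5 was Leu in 25 and Pro in 21. Each clone was small, at no more than 0.0140% of a tumor, and 8 of the 85 were found in both tumors of their mouse. Of all hydrophobic CD4+ tumor clones, 19 of 119, 35 of 219, 54 of 309 and 39 of 227 were in mice 5, 6, 7 and 8 (not tested). In the mouse's CD8+ samples 22 of the 85 were also found, against 4.4% to 7.99% of all CD4+ tumor clones of 12 to 15 residues. The part of the sequences shared with CD8+ T cells in these counts was not tested.

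With other V segments, Tyr-Trp was rare in the same setting. Of the TRBJ2-1 clones of 15 residues that used another V segment, 15 of 2465 in CD4+ tumors and 5 of 2813 in CD4+ dLNs had it, and in CD8+ T cells 142 of 12370 in tumors and 68 of 9568 in dLNs. With TRBV12-1 left out, an alternative chosen after the data were seen, the CD4+ clone share was 1.07% ± 0.0607 in tumors and 0.811% ± 0.0170 in dLNs (n = 4), so the difference between tissues became 0.254 points (exact permutation p = 0.0286).

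**Figure D4:**
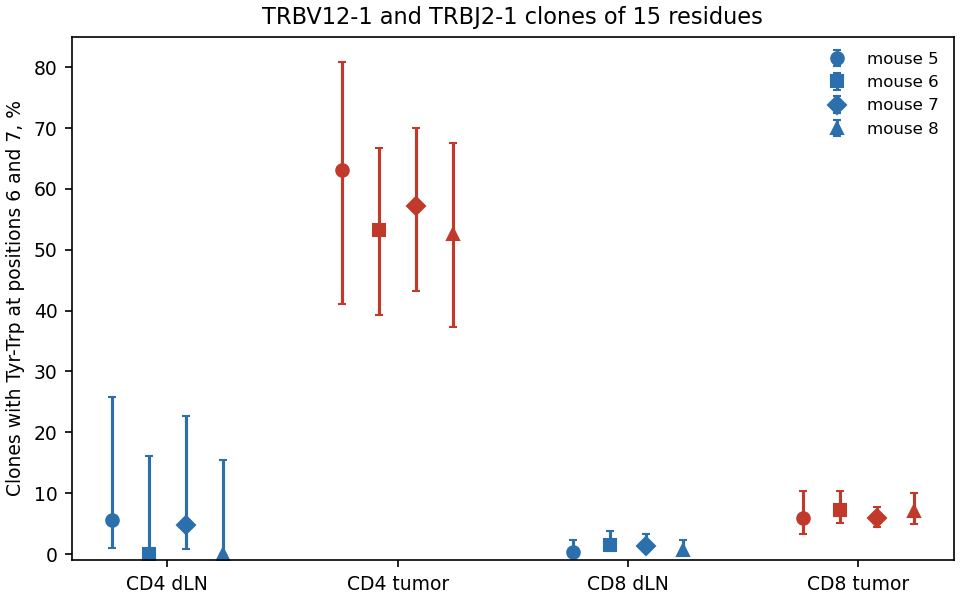
Percentage of TRBV12-1 and TRBJ2-1 clones of 15 residues with Tyr-Trp at CDR3 positions 6 and 7, 1 point per mouse with both sides pooled, and Wilson 95% intervals for counting error. CD4+ tumors lie at 52.6% to 63.2% and all other points at 7.29% or less.

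Large tumor clones were then compared with small ones. A clone at 0.1% or more of a tumor's reads was called large, and one under 0.01% rare. In CD8+ tumors the hydrophobic share of rare clones was 2.23%, 2.34%, 2.26% and 2.32% in mice 5, 6, 7 and 8, and among large clones it was 0%, 0%, 0% and 1.53%. The mean difference of -1.90 points (SD 0.745, n = 4) restates the share of rare clones in mice 5, 6 and 7, where no large clone was hydrophobic, so its exact permutation p of 0.0286 is not read as a difference. The large clones of the 4 mice were 269 distinct clones, of which 1 was hydrophobic. With large set at 1% or more the difference was -0.657 points (exact permutation p = 0.657). Over the 8 CD8+ tumors, 2 of 477 large clones were hydrophobic, and both were the same clone in the left and the right tumor of mouse 8. Between 0.1% and 1% none of 362 was. These were 218 distinct clones when a clone in both tumors of a mouse is counted once, which allows a share of up to 1.38%. Between 0.01% and 0.1% 5 of 655 distinct clones were, with shares of 0%, 0.521%, 2.15% and 0% in mice 5, 6, 7 and 8, so that mouse 7 lay close to its share among rare clones.

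In CD4+ tumors the mice did not share a direction. Large clones were hydrophobic in 2.18%, 0%, 0.995% and 1.15% of cases and rare clones in 1.12%, 1.33%, 1.26% and 1.27%, a difference of -0.161 points (SD 0.980, n = 4, exact permutation p = 0.629). Of 995 large clones over the 8 CD4+ tumors, 11 were hydrophobic, and of the 18 at 1% or more none was. The latter were 9 distinct clones, which allows a share of up to 33.3%. In dLNs the CD8+ share was 1.36% ± 0.0488 among rare clones and 1.01% ± 0.230 between 0.01% and 0.1%, with none of the 31 distinct large clones, which allows a share of up to 9.68%. In CD4+ dLNs 2.94%, 0%, 2.09% and 2.91% of large clones were hydrophobic in mice 5, 6, 7 and 8 (9 of 414, or 5 of 282 distinct clones), and 0.811% ± 0.0276 of rare clones, which was not tested.

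Clones were also sorted by their reads, since 6 reads were drawn per sorted cell. In CD8+ tumors the share was 2.29% ± 0.172 under 6 reads, 2.33% ± 0.0686 at 6 to 29 reads, 2.0% ± 0.198 at 30 to 119 reads, 0.815% ± 0.586 at 120 to 599 reads and 0.678% ± 0.943 at 600 reads or more. The highest classes rest on 13 of 1310 and 8 of 893 clones, where a clone in both tumors counts in each. At 600 reads or more mice 5 and 6 were at 0%, while mouse 7 was at 2.0%, close to its 1.98% at 30 to 119 reads. The tumor and the dLN were apart in each of the first 3 classes, with CD8+ dLNs at 1.41% ± 0.122, 1.33% ± 0.0150 and 1.16% ± 0.0923. In CD4+ tumors the share was 1.17% ± 0.153, 1.34% ± 0.204, 1.04% ± 0.0898, 0.759% ± 0.249 and 1.13% ± 1.03 in the same 5 classes. No hydrophobic tumor clone was 1 base away from a large clone of the same V and J segment in the same tumor, and of the other clones 0.0155% in CD8+ and 0.214% in CD4+ tumors were. With rates this low and so few hydrophobic clones, their absence does not set them apart from the others.

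**Figure D5:**
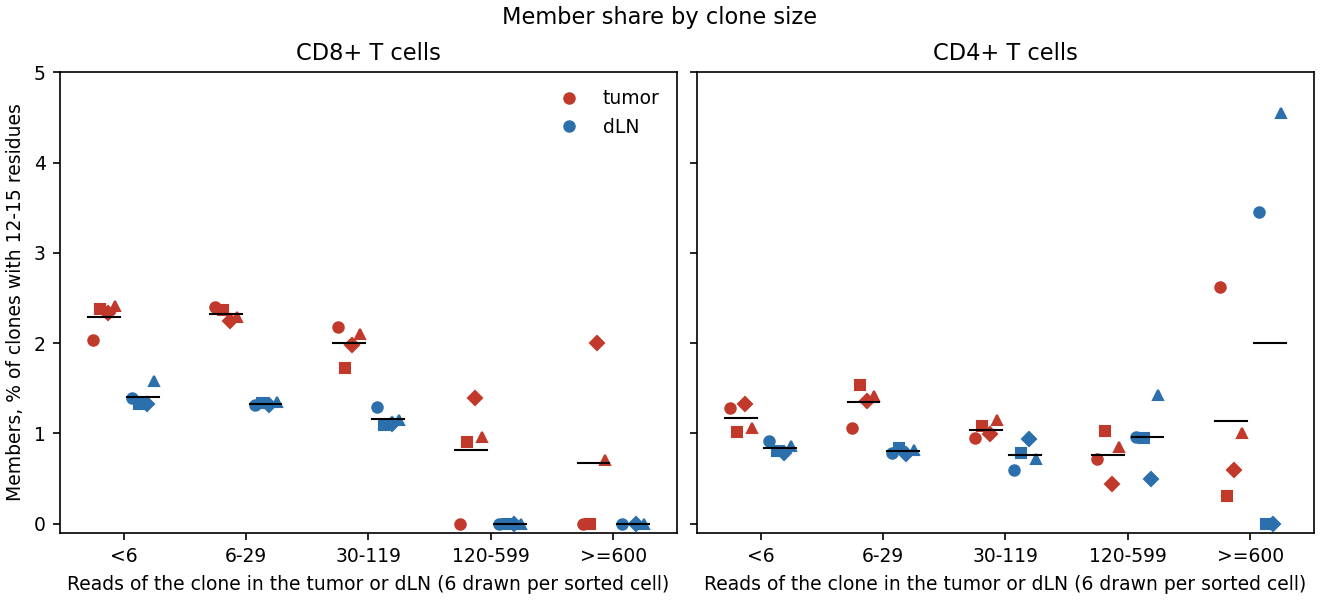
Hydrophobic share of clones of 12 to 15 residues by the reads of the clone, 1 point per mouse and a line at the mean, in tumors (red) and dLNs (blue). In CD8+ tumors the mean is 2.0% to 2.33% below 120 reads and under 1% above, and in CD4+ tumors it is 0.759% to 1.34% over all classes. Mouse 7 stands at 2.0% at 600 reads or more in CD8+ tumors.

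The leading CD8+ clones differed widely in size between mice. Frequencies are percentages of all reads of a tumor, and their Wilson 95% intervals count 1 cell per 6 reads and cover counting error only. The Val-Val clone of mouse 8 reached 2.78% (2.73% to 2.83%) in the left and 5.15% (5.09% to 5.21%) in the right tumor, where it ranked 8 and 3 among all CD8+ clones. It was the only hydrophobic clone above 1% in any tumor. In the left and right dLN of that mouse it stood at 0.0182% and 0.00925%. The leading CD8+ clone of mouse 7, whose V segment GENCODE lists as a pseudogene, was at 0.0351% and 0.0445%, that of mouse 6 at 0.00873% and 0.0159%, and that of mouse 5 at 0.00552% and 0.00404%. All 4 were found in both tumors of their mouse, and none in another mouse.

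The leading CD8+ clones of mouse 6 and mouse 8 were alike in segments, length and ending. Both used TRBV12-2 and TRBJ2-5 with 14 residues, ended in the same 7 residues after position 7, and differed at 4 of 42 bases. The hydrophobic CD8+ clone that ranked 3 in mouse 7 had the same V, J, length and last residues, with Val-Leu at positions 6 and 7, and stood at 0.0309% and 0.0326%. Of the hydrophobic CD8+ tumor clones of this V, J and length, 1 of 4, 8 of 17, 9 of 24 and 4 of 18 had this ending in mice 5, 6, 7 and 8. Of the other clones of this V, J and length it was 26 of 226, 49 of 397, 98 of 747 and 52 of 393, or 11.5% to 13.2%. The leading CD8+ clone of mouse 5, with TRBV19 and the same J segment, also closed with most of the bases of this ending.
CD8 mouse 7, TRBV12-2 and TRBJ2-5, Val-Leu: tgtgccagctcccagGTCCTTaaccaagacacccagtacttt
In mouse 5 the only hydrophobic clone of this V, J and length with this ending had 1 read in the left tumor. This group of clones was noticed after the leading clones had been ranked and was not tested.

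The leading CD4+ clones were more even between mice. The Val-Val clone of mouse 5 was at 0.315% (0.281% to 0.353%) in the left tumor and at 0.431% (0.378% to 0.490%) in the right one, and was not found in its dLNs. The Val-Trp clone of mouse 6 was at 0.0631% and 0.0863% in tumors and 0.0397% and 0.0279% in dLNs. The Ile-Trp clone of mouse 7 was at 0.178% and 0.233% in tumors and 0.179% and 0.110% in dLNs. The Tyr-Trp clone of mouse 8, a TRBV12-1 clone with another J segment than those above, was at 0.284% and 0.258% in tumors and 0.157% and 0.116% in dLNs. The 10 most frequent hydrophobic clones held 52.8% to 83.1% of the hydrophobic CD4+ reads of a mouse (mean of both tumors). For hydrophobic CD8+ reads it was 10.1% to 20.1% in mice 5, 6 and 7 and 92.8% in mouse 8.

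In the dLNs the most frequent hydrophobic clone of each subset came from mouse 5. The CD8+ clone, TRBV13-2 and TRBJ2-7 with Trp-Val, stood at 0.0246% in the right dLN and was found neither in the left dLN nor in the tumors. The CD4+ clone, TRBV3 and TRBJ2-7 with Val-Leu, stood at 0.356% in the left and 0.162% in the right dLN, and at 0.0855% and 0.147% in the tumors.

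The read share of CD4+ hydrophobic clones was compared between the 2 tumors of a mouse. The left and right values were 1.40% and 1.46% in mouse 5, 0.694% and 0.765% in mouse 6, 0.640% and 0.693% in mouse 7, and 1.10% and 0.990% in mouse 8. They differed by 0.0740 points within a mouse and by 0.434 points between mice (exact permutation test over 24 pairings, one-sided p = 0.0417, the smallest it can give). The within minus between difference was -0.360 points, and -0.174 points without mouse 5. It did not pass the exact permutation test without Tyr and Cys (-0.401 points, p = 0.25), without clones of the other subset (-0.406 points, p = 0.0833) or without TRBV12-1 (-0.346 points, p = 0.13). In CD8+ tumors the differences were 0.735 and 2.41 points (p = 0.0833 by the same exact test).

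Hydrophobic CD4+ clones were less often found in both tumors of a mouse than the other clones of 12 to 15 residues. In CD4+ tumors 28.1%, 27.6%, 29.8% and 29.8% of the hydrophobic clones were found on the other side in mice 5, 6, 7 and 8, against 39.8%, 37.8%, 39.6% and 40.0% of the others. The groups did not overlap, with a difference of -10.5 points (SD 0.815, n = 4, exact permutation p = 0.0286). In CD8+ tumors 10.3%, 9.56%, 15.1% and 12.6% were shared against 12.3%, 13.9%, 17.3% and 14.7%, lower in 4 of 4 mice, but with overlap between the groups (difference -2.65 points, SD 1.15, exact permutation p = 0.2). This test does not pair the values of a mouse, within which the differences ran from -4.37 to -1.95 points. With clones defined by V, J and amino acids the CD8+ difference was -4.61 points (exact permutation p = 0.114). Among CD4+ clones of like size the means were 16.5% against 17.5% under 6 reads, 20.3% against 27.5% at 6 to 29 reads, 41.3% against 56.7% at 30 to 119 reads and 97.2% against 97.1% at 120 to 599 reads (not tested).

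Overlap with the dLN was also lower for hydrophobic CD8+ clones. Of the hydrophobic CD8+ tumor clones 3.33%, 3.84%, 3.09% and 3.80% were found in a dLN of the mouse, and of the others 8.50%, 7.60%, 6.30% and 7.01%. The difference was -3.83 points (SD 0.924, n = 4), lower in 4 of 4 mice (exact permutation p = 0.0286). With clones defined by V, J and amino acids it was -7.31 points (exact permutation p = 0.0286). In CD4+ T cells 20.2%, 12.3%, 8.41% and 13.2% were found there against 24.6%, 23.6%, 18.3% and 21.1%, lower in 4 of 4 mice, with an exact permutation p = 0.0571. Within a mouse the CD4+ differences ran from -11.2 to -4.40 points, a pairing that this test does not use. Seen from the other direction, CD8+ tumor clones also found in a dLN were hydrophobic in 1.13% ± 0.170 and those found in no dLN in 2.40% ± 0.0543, beside 1.38% ± 0.05 of the dLN clones found in no tumor. For CD4+ T cells these shares were 0.768% ± 0.156, 1.41% ± 0.135 and 0.836% ± 0.0193.

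Between mice, identical V, J and amino acid sequences were counted, without a test. In CD8+ tumors 385 of 5313 hydrophobic sequences (7.25%, Wilson 95% interval 6.58% to 7.97%) were found in 2 or more mice, and 10.3% of 206421 others. In CD4+ tumors it was 20 of 808 (2.48%) against 5.80%, in CD8+ dLNs 149 of 2880 (5.17%) against 11.0%, and in CD4+ dLNs 10 of 734 (1.36%) against 7.31%. Sequences found in all 4 mice in CD4+ tumors were 4 of 808 hydrophobic sequences (0.495%) and 0.179% of the others, and all 4 of the former were the TRBV12-1 and TRBJ2-1 sequences with Tyr-Trp described above.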

How the data were processed

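TCR beta chain libraries were made from polyA RNA of sorted T cells without molecular identifiers, so reads are not independent molecules. The authors trimmed reads with cutadapt 3.2, filtered them with PRINSEQ, assembled clones against IMGT mouse segments with MiXCR, and deposited 1 table per library in VDJtools format, with the count of reads and the fraction of all reads for each clone. The positions where V, D and J end within the CDR3 are also the authors', and in the deposited tables the totals lie above the 6 reads per sorted cell of the study's methods. The sorted-cell numbers behind that draw came from the study's supplement.

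Reads were drawn without replacement to 6 per sorted cell with a fixed seed (deposited reads 326582 to 4840722 per library), the 2 fragments of a tumor were summed, and shares of clones and reads with 12 to 15 residues were averaged over left and right with Python 3.11.15 (scipy 1.17.1, pandas 2.3.3, numpy 2.4.6). Groups of 4 mice were compared with a two-sided exact permutation test (70 splits), and likeness of left and right with a one-sided exact permutation test (24 pairings), with Benjamini-Hochberg adjustment over 17 results. Mice may share litter or cage, and the p-values measure the spread between these 4 mice only. Wilson 95% intervals and limits for counts of 0 (3 counts) cover counting error only. The statistics were tested on simulated data.

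Same-numbered samples came from the same mouse. Their deviations from the group means had a correlation between tumor and dLN of 0.230 (CD8+) and 0.181 (CD4+) by clones, and 0.240 and 0.759 by reads (n = 4, a description). Named clones were the most frequent hydrophobic clone of each mouse and subset over both tumors, any above 1% in a tumor, and the most frequent in a dLN per subset. Named V and J segments were the 3 highest and 3 lowest among those with at least 200 clones in every mouse, and named residue pairs the 5 most frequent. The residue rule, the lists and the tests were chosen with earlier results of these data known. Alternatives covered the draw, read minimums, the residue set, the clone definition, the denominator, V usage, left-out mice and the mouse as a block. Removal of clones shared with the other subset, of TRBV12-1, of clones 1 base from a large clone and of the most frequent hydrophobic clone, and weighting by J usage, were added after the data were seen.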

Additional observations from a re-analysis of the deposited data

Results flagged for a closer look

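The read share of hydrophobic clones in the CD8+ tumors of mouse 8 was 5.03%, against 0.380% to 0.883% in the other mice. Its gap to the nearest mouse was 0.892 of the range of the group, above Dixon's 95% critical value for 4 values. Among the 16 groups of 4 mouse values looked at, chance sets apart about 1 in 20. Without the most frequent hydrophobic clone of each tumor the value of mouse 8 was 0.383%, within the range of the other mice. The difference between tumor and dLN in the share of clones also differed between CD4+ and CD8+ T cells, by -0.551 percentage points (SD 0.0516, n = 4, exact permutation p = 0.0286, adjusted p = 0.054), in the same direction in 4 of 4 mice.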

How the results depend on the processing

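The 5 results on the share of clones kept their direction and an exact permutation p of 0.0286 under the 16 alternatives each that kept all 4 mice and no block, with differences of 0.606 (without Tyr and Cys) to 0.966 points between CD8+ tumor and dLN, 0.187 (without Tyr and Cys) to 0.448 points between CD4+ tumor and dLN, -1.16 to -0.797 and -0.560 to -0.407 points for CD4+ minus CD8+ in tumors and dLNs, and -0.619 to -0.298 (V usage weighted) for the difference of the tissue differences. Without the most frequent hydrophobic clone, which lowers the share by construction, the tumor minus dLN difference in read share turned to -0.731 in CD8+ T cells and to -0.0238 in CD4+ T cells, and the CD4+ minus CD8+ difference in tumors to 0.196. The CD4+ value also turned without Tyr and Cys (-0.0322) and without TRBV12-1 (-0.0233). Without Tyr and Cys the CD4+ minus CD8+ difference in dLN reads was -0.215 (exact permutation p = 0.0571). With large clones set at 1% or more, the large minus rare difference was -0.657 in CD8+ tumors (exact permutation p = 0.657) and -1.24 in CD4+ tumors, which had 1 to 5 such clones each and none hydrophobic, so that the latter value restates the share of rare clones. The likeness of the left and right CD4+ tumors was -0.401 without Tyr and Cys, -0.406 without clones of the other subset and -0.346 without TRBV12-1, with exact permutation p of 0.25, 0.0833 and 0.13. The CD4+ difference in overlap with the dLN passed at -9.16 with at least 2 reads and at -9.44 with 169338 reads drawn everywhere (exact permutation p = 0.0286). The cause of these changes was not tested.

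With 1 mouse left out, the difference ranged from 0.896 to 0.942 (CD8+ clones), 0.348 to 0.413 (CD4+ clones), -0.688 (without mouse 8) to 0.855 (CD8+ reads), -0.0744 (without mouse 5) to 0.122 (CD4+ reads), -1.09 to -1.06 (tumor clones, CD4+ minus CD8+), -1.28 to 0.382 (tumor reads, the latter without mouse 8), -0.543 to -0.512 (dLN clones), -0.381 to -0.284 (dLN reads) and -0.570 to -0.529 (CD4+ minus CD8+ tissue difference). Large minus rare ranged from -2.27 to -1.76 (CD8+) and -0.570 (without mouse 5) to 0.228 (CD4+, without mouse 6), and left-right likeness from -2.14 to -0.295 (CD8+, without mouse 8) and -0.446 to -0.174 (CD4+, the latter without mouse 5). Clones in both tumors ranged from -2.89 to -2.08 (CD8+) and -10.7 to -10.1 (CD4+), and in a dLN from -4.05 to -3.39 and -9.68 to -7.40. With 3 against 3 mice p cannot go below 0.1. A replicate block by mouse left each value as it was (0.925 for CD8+ clones), and 11 of 15 results were at the smallest p of 16 sign changes, so this design cannot pass the threshold. No block could be made for the left-right results. After adjustment over 17 results, 10 with p under 0.05 became 0.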
